A study of Mus musculus with 2 samples.

Results

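The genes of 3 groups of conjugating enzymes, the UDP-glucuronosyltransferases (Ugt), the glutathione S-transferases (Gst) and the cytosolic sulfotransferases (Sult), were followed in RNA-seq of whole mouse kidney. They were chosen by symbol: every gene whose symbol starts with Ugt1a, Ugt2, Ugt3, Gsta, Gstm, Gstp, Gstt, Gsto, Gstk or Gstz, or with Sult and a digit. The rule took 46 of the 20002 genes analysed, of which 8 were Ugt1a, 5 Ugt2, 2 Ugt3, 4 Gsta, 8 Gstm and 8 Sult genes, and 11 belonged to the smaller classes Gstp, Gstt, Gsto, Gstk and Gstz. RefSeq lists 67 mouse genes with these prefixes, and the other 21 were not analysed here. Of the 46, 2 are pseudogenes, Gstm2-ps1 and Gstp-ps.

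Both groups were C57BL/6J mice that received adeno-associated virus of serotype 9 (AAV9) through the tail vein at 11 weeks of age. In the CKO group the virus carried shRNA against Regnase-2, an RNase encoded by Zc3h12b; the control virus carried a control shRNA or was an empty vector, since the methods use both wordings. The kidneys were taken at 14 weeks of age according to the sequencing methods and at 16 weeks according to the virus methods, and RNA came from the left kidney. The mice are called a proximal tubule-specific conditional knockout, but the construct is a knockdown whose specificity rests, in the methods, on a preference of AAV9 for these tubules and was assessed by immunofluorescence; no tubule promoter is named, and whether a library pooled animals and of which sex was not given in the sources used here. There was 1 library per group, so no difference has a replicate check.

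Reads were taken as the deposited value minus a constant, 34 for control and 50 for CKO, an inference from the values. Summed over the 20002 genes they came to 38851231 for control and 43588721 for CKO, called the library total below, and CKO reads times 0.667, the median gene ratio of control to CKO, are called scaled below. Ratios are log2 of CKO over control with a pseudocount of 1. The words each scaling, below, cover this one, 3 others and the deposited values, in which the constants are also left in, so that a change of sign there need not come from the scaling. The 95% intervals in brackets are exact Clopper-Pearson intervals for counting error only. Zc3h12b, with 47 control and 59 CKO reads, had a log2 ratio of -0.25 [-0.83, 0.33]. This interval spans 0, so these reads do not check the label, and other measures of the target were not used here.

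Conjugation makes lipophilic hormones, bile pigments, drugs and oxidation products soluble enough to leave in urine or bile. Ugt enzymes sit in the endoplasmic reticulum and add glucuronic acid from the activated donor UDP-glucuronate. Gst enzymes add glutathione to electrophiles, and Sult enzymes add sulfate from its activated form PAPS. In the kidney these reactions are concentrated in the proximal tubule, which also secretes the products and takes glutathione conjugates apart into mercapturates.

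Both Ugt3 genes and 4 of 5 Ugt2 genes were lower in the library labelled CKO, while Ugt1a2 and Ugt1a1 were higher and the most abundant Ugt1a gene, Ugt1a7c, was moderately lower. Gsta genes were all higher under each scaling tried, and the Gstm, smaller Gst and Sult families had medians of -0.51, -0.48 and 0.12, of which the first and second turned positive with the values as deposited. Of the 46 genes, 45 had at least 10 scaled reads in 1 library, and Sult1e1, with 4 and 8 reads, did not. Of these 45, 9 were at least 2-fold higher (20.0%, beside 13.4% of the 17469 genes that passed the same filter) and 6 at least 2-fold lower (13.3%, beside 5.35%). The median log2 ratio was -0.06 over the 45 genes and 0.02 over all genes that passed. Sult4a1 was the only one to reach 10 scaled reads in 1 library alone, the CKO one, and could therefore enter only as higher.

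These splits depended on the scaling. Making the library totals equal moved the median of all genes to 0.44, and the values as deposited to 0.57. Among all genes past 2-fold, 71.4% were higher with the main scaling, 89.9% after making totals equal and 96.5% for the deposited values; for the Ugt, Gst and Sult genes the shares were 60.0%, 77.8% and 88.2%. The 9 genes that were higher stayed at least 2-fold higher under the 3 other scalings and for deposited values, whereas of the 6 that were lower only Ugt2b38 and Ugt2b5 stayed past 2-fold under each. Of the 46 genes, 23 were higher and 13 lower under each scaling, and 9 changed sign in at least 1 of these settings, of which Gstk1, Gstm3, Gstt2 and Sult1c2 did so for deposited values only; Gstm4 was lower except for deposited values, where it was at exactly 0. In RNA of a whole kidney, fewer cells of a type and less RNA per cell cannot be told apart.

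**Figure D1:**
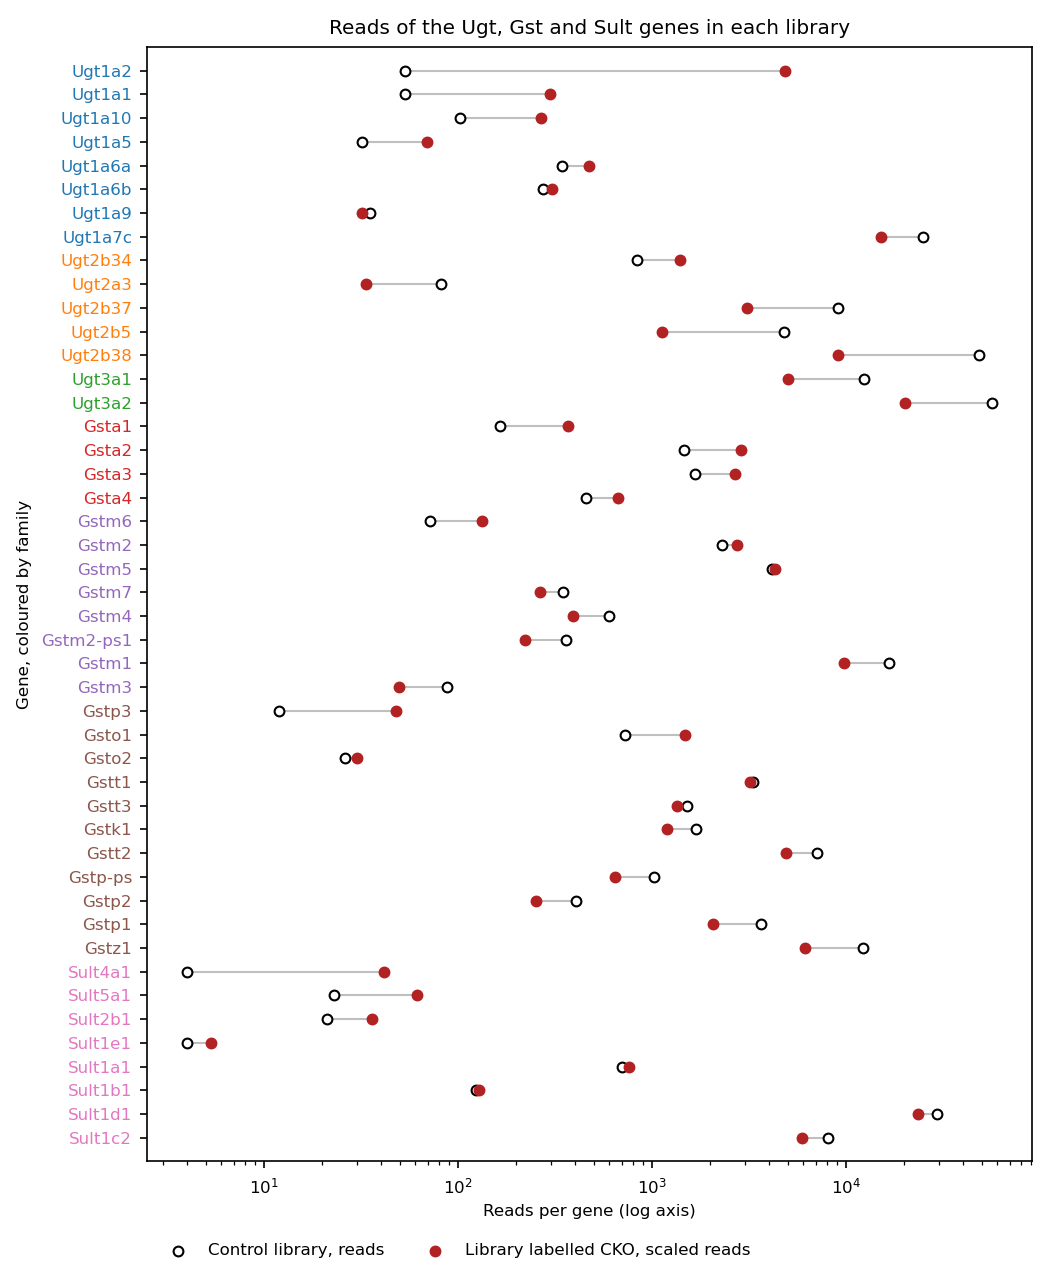
Reads of each of the 46 genes in the control library (open circles) and scaled reads in the library labelled CKO (filled circles), on a log axis and grouped by family, with no division by length. The longest line is that of Ugt1a2, from 53 reads to 4871 scaled reads, and the abundant Ugt2b38 and Ugt3a2 moved the other way.

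**Figure D2:**
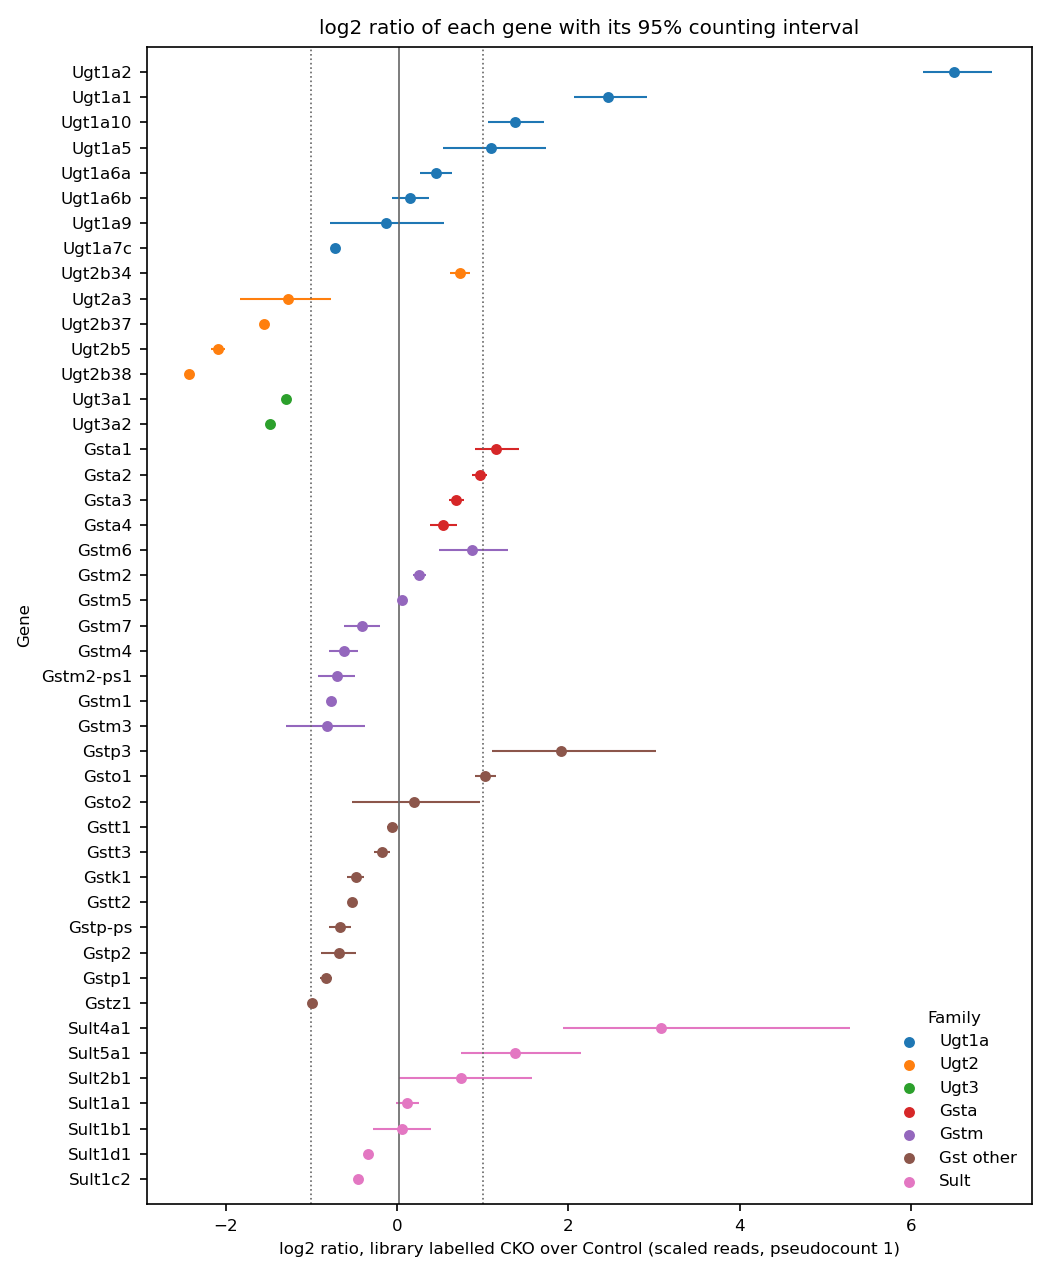
The log2 ratio of each of the 45 genes that passed the filter, CKO over control, with its 95% counting interval, coloured by family. Dotted lines mark 2-fold and the solid line marks the median of all genes, 0.02; with equal totals the zero point would shift by about the distance from 0.02 to 0.44, which turns the sign of Ugt1a9, Gstm7, Gstt1, Gstt3 and Sult1d1.

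The Ugt1a genes share one locus on chromosome 1 in which each has a first exon of its own, with its own promoter, spliced to exons common to all. The first exon encodes the part that binds the acceptor, so the choice of promoter sets the substrate range. In the GENCODE M21 annotation of GRCm38, 3 exons of 132, 88 and 220 bases are identical in all 8 genes analysed here and are followed by a last exon of varying length. Ugt1a2 has 900 bases of its own among 2211 exon bases. Reads in common exons can be assigned to no single member, and how the authors' counting treated them was not given in the sources used here. Ugt1a9 had only 35 reads in the control library, so reads of the common exons had not been added to every member. Ugt1a7c alone extends the last exon by 998 bases in GENCODE M21, where reads of any long Ugt1a transcript would fall to it, so its reads are uncertain.

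Ugt1a2, at chr1:88200611-88220002 on the plus strand of GRCm38, had 53 control reads and 7307 reads in the library labelled CKO. The log2 ratio was 6.50 [6.13, 6.94], and it stayed between 6.39 and 6.91 under the other scalings. Ugt1a1, the bilirubin-conjugating form at chr1:88211959-88220002, also started from 53 reads and reached 444, a log2 ratio of 2.46 [2.07, 2.92]. Their control reads were equal, so the gap between both genes in the CKO library was the whole of the difference. Ugt1a10 went from 102 to 399 reads, a log2 ratio of 1.37 [1.07, 1.71]. Ugt1a5 went from 32 to 104 reads, a log2 ratio of 1.09 [0.53, 1.74] whose interval reaches well below 2-fold. With a pseudocount of 10 its ratio was 0.92, inside 2-fold, and the genes at least 2-fold higher were then 8 instead of 9.

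The promoters of Ugt1a2 and Ugt1a1, the genes with the highest ratios of the family, are shown from 250 bases before to 50 bases after the start (RefSeq, GRCm38.p6, plus strand, chr1:88200361-88200660 and chr1:88211709-88212008). Capitals mark the 50 bases from the start on.
Ugt1a2: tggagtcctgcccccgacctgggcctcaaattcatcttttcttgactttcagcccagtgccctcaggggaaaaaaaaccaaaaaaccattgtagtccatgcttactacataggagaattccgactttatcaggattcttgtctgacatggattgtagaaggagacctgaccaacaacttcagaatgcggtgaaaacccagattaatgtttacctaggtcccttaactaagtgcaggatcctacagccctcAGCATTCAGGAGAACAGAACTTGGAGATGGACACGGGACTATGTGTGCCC
Ugt1a1: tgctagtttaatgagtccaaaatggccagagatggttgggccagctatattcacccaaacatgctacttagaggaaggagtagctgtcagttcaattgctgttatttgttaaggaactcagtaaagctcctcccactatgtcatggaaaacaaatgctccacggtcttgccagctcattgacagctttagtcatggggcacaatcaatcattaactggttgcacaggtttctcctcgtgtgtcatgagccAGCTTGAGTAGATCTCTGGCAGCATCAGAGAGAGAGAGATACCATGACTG
In a global alignment these promoters were 48.1% identical. The promoters of Ugt1a10 and Ugt1a9, the most alike of the 7 compared, were 70.9% identical; Ugt1a6b was not among them, and whether sequence bears on the ratios was not tested.

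Ugt1a7c was the Ugt1a gene with the most reads per kb of exon that no other gene shares. It had 24898 control and 22673 CKO reads, a log2 ratio of -0.72 [-0.75, -0.69] that was -0.13 with the values as deposited. On this scale its level was 13002 reads per kb for control and 7893 scaled reads per kb for CKO, while Ugt1a2 went from 58.9 to 5413. Shares within a family need no scaling between libraries. Ugt1a7c took 96.5% [96.3, 96.8] of the control Ugt1a reads and 70.5% [70.0, 71.0] of the CKO ones, and Ugt1a2 took 0.206% [0.154, 0.269] and 22.7% [22.3, 23.2]. The common 3′ end adds to the uncertainty of both shares. The remaining members were Ugt1a6a with 344 and 707 reads, Ugt1a6b with 273 and 456, and Ugt1a9 with 35 and 48. The first 2 have proteins that are 97.2% identical, so reads may be split wrongly between them, and the ratio of Ugt1a9, -0.13 [-0.79, 0.54], changed sign both with the values as deposited and when totals were made equal.

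Along the locus the ratios were not spread evenly. The starts of the 8 genes lie between 160 kb (Ugt1a10) and 3.09 kb (Ugt1a1) before the first common exon. The pair nearest to it, Ugt1a2 at 14.4 kb and Ugt1a1, had the highest ratios, and Ugt1a5 at 49.0 kb came next on that side. Between 80.2 and 144 kb, Ugt1a6a, Ugt1a6b, Ugt1a7c and Ugt1a9 had ratios from -0.72 to 0.45, and the farthest gene, Ugt1a10, was at 1.37. The median of the family was 0.77, and it described no common direction.

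**Figure D3:**
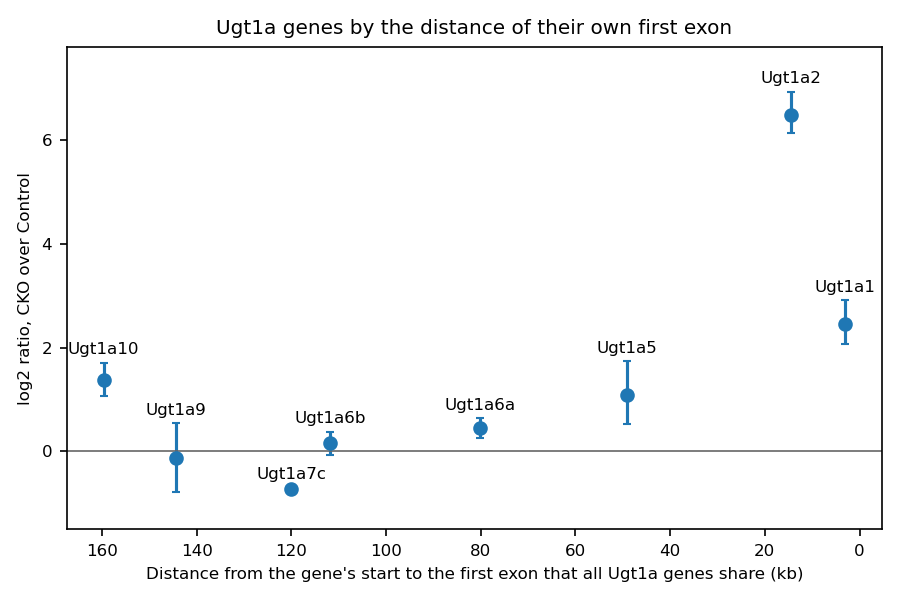
The log2 ratio of each Ugt1a gene, with its 95% counting interval, against the distance in kb from its start to the first exon common to all Ugt1a genes. Ugt1a2 at 6.50 and Ugt1a1 at 2.46 lie nearest to the common exons, and Ugt1a7c at -0.72 is the lowest.

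The Ugt2 genes lie in tandem on chromosome 5, each with exons of its own, and conjugate steroids and other lipophilic acceptors. Of 5 analysed, 4 were at least 2-fold lower with the main scaling, beside 5.35% of all genes, and the median log2 ratio was -1.55. Equal totals gave -1.13 and the values as deposited -0.96, so its direction did not depend on the scaling. The interval lay wholly past 2-fold for Ugt2b38, Ugt2b37 and Ugt2b5.

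Ugt2b38, at chr5:87409939-87424203 on the minus strand, had 48663 control reads and 13584 reads in the library labelled CKO. It was 5.37-fold lower [5.27, 5.48], a log2 ratio of -2.43, and it had the most reads per kb of all Ugt genes in the control, 25734 against 4789 scaled reads per kb for CKO. Ugt2b5, at chr5:87124946-87140340, went from 4800 to 1687 reads, a log2 ratio of -2.09 [-2.17, -2.01]. The proteins of Ugt2b38 and Ugt2b5 are 96.4% identical, so their reads may be partly exchanged, but both were lower under each scaling. Ugt2b37, at chr5:87240492-87254788, went from 9088 to 4654 reads and was 2.93-fold lower, a log2 ratio of -1.55. Its protein is 91.3% identical to that of Ugt2b38 and 92.1% to that of Ugt2b5, so some exchange of reads is possible here too. Ugt2a3, with 82 and 50 reads, was at -1.27 [-1.84, -0.77].

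Ugt2b34 was the exception in the family. It lies at the other end of the cluster, at chr5:86889770-86906937, and went from 835 to 2079 reads, a log2 ratio of 0.73 [0.61, 0.85] that was above 0 under each scaling. Its share of all Ugt2 reads rose from 1.32% [1.23, 1.41] in the control to 9.43% [9.04, 9.82] in the CKO library, while that of Ugt2b38 fell from 76.7% [76.3, 77.0] to 61.6% [60.9, 62.2].

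The 3 members that were lower together also have like promoters, shown with that of Ugt2b34 (RefSeq, GRCm38.p6, minus strand; in the order given chr5:87424154-87424453, chr5:87254739-87255038, chr5:87140291-87140590 and chr5:86906888-86907187). Capitals mark the longest run of bases present in all 3.
Ugt2b38: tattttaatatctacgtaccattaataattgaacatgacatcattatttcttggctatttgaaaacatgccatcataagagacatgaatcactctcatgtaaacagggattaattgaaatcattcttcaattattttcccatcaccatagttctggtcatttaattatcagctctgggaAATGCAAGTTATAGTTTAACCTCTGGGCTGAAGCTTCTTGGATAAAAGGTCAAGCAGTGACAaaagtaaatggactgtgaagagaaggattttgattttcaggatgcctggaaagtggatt
Ugt2b37: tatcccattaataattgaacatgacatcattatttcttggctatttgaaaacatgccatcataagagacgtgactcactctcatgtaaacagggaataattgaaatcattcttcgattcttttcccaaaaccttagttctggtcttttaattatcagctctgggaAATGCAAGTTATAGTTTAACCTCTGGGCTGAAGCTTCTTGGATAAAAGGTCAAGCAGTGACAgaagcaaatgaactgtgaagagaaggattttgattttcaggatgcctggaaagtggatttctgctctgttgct
Ugt2b5: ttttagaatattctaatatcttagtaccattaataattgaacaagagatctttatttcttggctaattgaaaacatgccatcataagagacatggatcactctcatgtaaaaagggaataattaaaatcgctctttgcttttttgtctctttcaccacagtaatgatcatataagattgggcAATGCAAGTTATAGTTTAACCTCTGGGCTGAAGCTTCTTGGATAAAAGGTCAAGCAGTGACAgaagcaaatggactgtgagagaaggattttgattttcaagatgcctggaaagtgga
Ugt2b34: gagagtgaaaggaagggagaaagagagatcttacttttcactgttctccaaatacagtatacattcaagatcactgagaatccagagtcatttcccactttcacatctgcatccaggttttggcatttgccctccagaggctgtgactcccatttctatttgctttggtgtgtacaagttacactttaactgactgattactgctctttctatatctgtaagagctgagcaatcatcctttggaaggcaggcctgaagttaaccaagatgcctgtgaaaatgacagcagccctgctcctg
The run is 62 bases long and ends 9 bases before the start of Ugt2b38, 23 before that of Ugt2b37 and 6 before that of Ugt2b5. It was in 3 of the 32851 promoters, the 3 from which it was taken. A run this long was picked because they share it, so this count is not a separate result. In a global alignment the promoters of Ugt2b38 and Ugt2b37 were 86.9% identical, those of Ugt2b38 and Ugt2b5 84.2% and those of Ugt2b37 and Ugt2b5 76.2%, whereas that of Ugt2b34 was 46.7% to 51.7% identical to them. Ugt2a3, also lower, has a promoter 47.1% to 50.1% identical to those 3, so the likeness does not cover every member that was lower. Whether the sequence bears on the ratios was not tested.

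**Figure D4:**
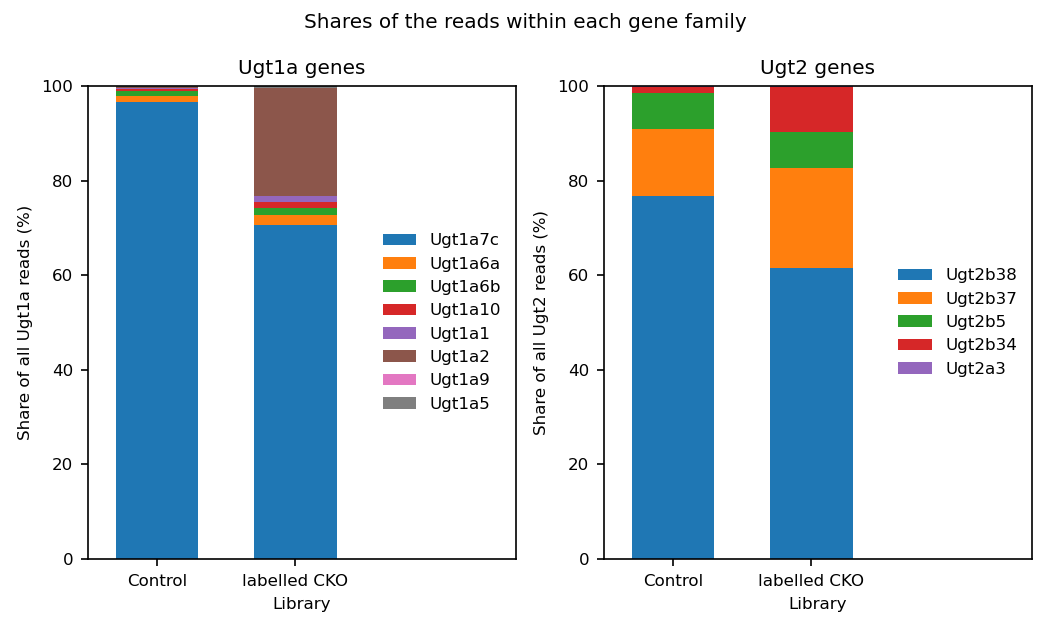
Share of each gene in all Ugt1a reads (left) and all Ugt2 reads (right) in the control library and the library labelled CKO, as stacked bars from 0 to 100%. Ugt1a2 grew from 0.206% to 22.7% of the Ugt1a reads, and Ugt2b34 from 1.32% to 9.43% of the Ugt2 reads.

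Ugt3 enzymes use other sugars, such as N-acetylglucosamine, as the donor. Both genes lie side by side on chromosome 15, and both were lower under each scaling. Ugt3a2, at chr15:9335551-9370955, had 56386 control and 30123 CKO reads, a log2 ratio of -1.49 [-1.51, -1.47]. Ugt3a1, at chr15:9279822-9315038, had 12351 and 7512 reads, a log2 ratio of -1.30 [-1.34, -1.26]. The family was past 2-fold with the main scaling, but its median of -1.40 became -0.98 with equal totals, and -0.81 for deposited values. Ugt3a2 kept 82.0% of the family's control reads and 80.0% of its CKO reads, so the pair was lower nearly in proportion.

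The alpha class, Gsta, reduces lipid peroxides and conjugates products of lipid oxidation. The 4 genes were higher under each scaling, with a median log2 ratio of 0.83 that was 1.25 with equal totals, and 1.40 for deposited values. Gsta2 had the most reads per kb, 1310 for control and 2557 scaled reads per kb for CKO. It went from 1468 to 4300 reads, a log2 ratio of 0.97 [0.88, 1.05]. Gsta1, at chr9:78230669-78242683, went from 164 to 551 reads, a log2 ratio of 1.16 [0.91, 1.42]. Gsta3, the only one on chromosome 1, had 1657 and 4018 reads, and Gsta4, which favours hydroxyalkenals, had the lowest ratio of the class with 458 and 999 reads, 0.54 [0.38, 0.70].

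Gsta1 and Gsta2 cannot be separated well, since their proteins are 95.1% and their coding bases 97.6% identical. Between them lie 2 gene models outside the symbol rule, Gm3776, whose protein is 99.6% identical to that of Gsta1, and Gm10639, 96.4% identical to that of Gsta2. They were looked at after the values of the family were seen. Gm3776 had 57 and 299 reads, a log2 ratio of 1.79 [1.39, 2.24], and Gm10639 had 348 and 1720, a log2 ratio of 1.72 [1.55, 1.89]. The 5 alpha genes and models read on chromosome 9 thus all had ratios above 0 with the main scaling. The promoters of Gsta1 (plus strand, chr9:78230419-78230718) and Gsta2 (minus strand, chr9:78347096-78347395; RefSeq, GRCm38.p6) are shown because the pair moved together, with GCGTG, the core letters bound by the aryl hydrocarbon receptor, in capitals.
Gsta1: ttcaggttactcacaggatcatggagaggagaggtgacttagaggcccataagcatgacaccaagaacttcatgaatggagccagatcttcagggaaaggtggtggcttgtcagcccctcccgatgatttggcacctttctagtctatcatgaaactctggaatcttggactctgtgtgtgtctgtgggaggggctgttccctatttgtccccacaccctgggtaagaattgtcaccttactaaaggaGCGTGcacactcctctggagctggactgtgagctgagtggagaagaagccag
Gsta2: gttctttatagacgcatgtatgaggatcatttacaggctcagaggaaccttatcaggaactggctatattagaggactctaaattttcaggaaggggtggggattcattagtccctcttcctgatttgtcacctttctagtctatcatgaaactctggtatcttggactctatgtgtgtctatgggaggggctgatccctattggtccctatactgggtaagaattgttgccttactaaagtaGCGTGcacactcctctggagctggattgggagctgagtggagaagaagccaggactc
They are 74.6% identical in a global alignment, and GCGTG lies at a like place in both. At least 1 promoter with it was found for 10 of the 39 genes matched here and for 35.2% of the 27025 genes with a promoter.

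The mu class, Gstm, conjugates a wide range of electrophiles, and 7 of its 8 genes lie in tandem on chromosome 3, the exception being the pseudogene Gstm2-ps1 on chromosome 5. Its median log2 ratio was -0.51, but -0.10 with equal totals, and 0.12 for deposited values, so the class as a whole had no fixed direction. Gstm1, at chr3:108012250-108017973, had the most reads per kb, 11970 for control and 7022 scaled reads per kb for CKO. It had 16686 and 14684 reads, a log2 ratio of -0.77 [-0.80, -0.74] that was below 0 under each scaling. Gstm6 had the highest ratio of the class with 72 and 199 reads, 0.87 [0.49, 1.29], and Gstm3 the lowest with 88 and 74 reads, -0.82 [-1.30, -0.37], which turned to 0.02 with the values as deposited. Gstm2, with 2299 and 4124 reads, and Gstm5, with 4145 and 6486, were above 0 under each scaling. Within the class, Gstm1 went from 67.8% [67.2, 68.4] to 54.6% [54.0, 55.2] of the reads and Gstm5 from 16.8% [16.4, 17.3] to 24.1% [23.6, 24.6]. The class thus held the same genes in another mixture.

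Of the 11 genes of the smaller classes, 2 were at least 2-fold higher (18.2%, beside 13.4% of all genes) and none at least 2-fold lower (5.35% of all genes), and the median of -0.48 turned to 0.11 with the values as deposited. Gsto1, an omega-class enzyme that reduces dehydroascorbate and arsenic compounds, went from 728 to 2229 reads, a log2 ratio of 1.03 [0.91, 1.15]. Gstp3 had few reads, 12 and 72, and a log2 ratio of 1.91 [1.11, 3.02]. Gstz1, which isomerises maleylacetoacetate in tyrosine breakdown, had the most reads per kb of these classes, 5709 for control and 2859 scaled reads per kb for CKO. With 12275 and 9221 reads it was 1.997-fold lower [1.94, 2.05], just inside the threshold, and it passed it at -1.02 both with the median log2 ratio set to 0 and with the column minimum subtracted. Gstp1 had 3661 and 3088 reads and Gstp2 had 404 and 377, and with proteins 97.1% identical the pair is uncertain, as is the pseudogene Gstp-ps with 1019 and 963 reads. The theta-class genes Gstt1, Gstt2 and Gstt3 had ratios of -0.06, -0.52 and -0.18, each of which turned positive with the values as deposited. Gstk1, the kappa-class enzyme, had 1680 and 1801 reads and turned positive there too, and Gsto2 had 26 and 45 reads.

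The Sult genes were led by Sult1d1, which acts on catecholamines and lies next to the Ugt2 cluster on chromosome 5. It had 29566 and 35180 reads and the most reads per kb, 12217 for control and 9691 scaled reads per kb for CKO. Its log2 ratio of -0.33 [-0.36, -0.31] turned to 0.08 with equal totals, and that of Sult1c2, -0.46 [-0.50, -0.41] from 8117 and 8879 reads, turned to 0.13 with the values as deposited. So neither of the most-read sulfotransferases had a direction that held under each scaling. Sult1a1, the phenol sulfotransferase, had 698 and 1137 reads, and Sult1b1 had 124 and 193; both were within 0.12 of 0 with the main scaling.

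The 2 Sult genes at least 2-fold higher (28.6%, beside 13.4% of all genes) rested on few reads. Of them, Sult4a1 passed the filter through the CKO library alone and could enter only as higher, which raises this percentage. Sult4a1, a form known from brain, had 4 control and 62 CKO reads, a log2 ratio of 3.08 with a wide interval, [1.94, 5.29], that was 1.87 with a pseudocount of 10 and 1.53 with the values as deposited. Sult5a1 had 23 and 92 reads, a log2 ratio of 1.38 [0.74, 2.14], and Sult2b1, which acts on cholesterol, had 21 and 54. The family's median of 0.12 stayed above 0 under each scaling, but it does not describe the most-read genes. Summed Sult reads, 76.7% of them from Sult1d1 in the control, had a log2 ratio of -0.34 [-0.36, -0.32] with the main scaling. As a share of the library total they rose from 0.0992% to 0.105%, so the direction of the sum depended on the measure.

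The families also differ in how many reads they held in all. Summed Ugt2 reads went from 63468 to 22054, which was 0.163% of the control and 0.0506% of the CKO library total, and the scaled sum was 4.32-fold lower. Summed Ugt3 reads went from 68737 to 37635 and were 2.74-fold lower after scaling. Summed Ugt1a reads went from 25790 to 32138, a log2 ratio of -0.27 after scaling; as a share of the library total they rose from 0.0664% to 0.0737%. Summed per kb of exon that no other gene shares, they rose from 15142 to 16472 after scaling, so the direction of the Ugt1a sum depended on the measure. Summed Gsta reads went from 3747 to 9868, 1.76-fold higher after scaling. Over all 46 genes the sum was 256630 control and 206177 CKO reads, 0.661% and 0.473% of the library totals.

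Genes around these reactions were read from lists. For glucuronidation, the 3 genes that make UDP-glucuronate and carry it into the endoplasmic reticulum, Ugp2, Ugdh and Slc35d1, were between -0.64 and -0.17 with a median of -0.26, which turned to 0.16 with equal totals. For sulfation, 8 genes were analysed that carry sulfate, make or carry its activated form PAPS, or break down the by-product PAP. Their median was -0.36, turning to 0.06 with equal totals, from Slc26a1 at -1.08 to the apical sulfate transporter Slc13a1 at 0.73, with 9080 and 22609 reads. Bpnt2 is the same gene as Impad1 under another symbol and was read as Impad1.

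Glutathione is made and taken apart around the conjugation step. Of 7 genes of glutathione synthesis, 6 were below 0 and 2 of these past 2-fold (5.35% of all genes), and the median was -0.63, or -0.21 with equal totals and -0.04 for deposited values. Cbs, the entry to transsulfuration, was the lowest at -1.51 with 12154 and 6419 reads, and Gss, glutathione synthetase, had 17328 and 12139. The 9 genes that take glutathione and its conjugates apart had a median of -1.24 that stayed below 0 under each scaling, -0.65 with the values as deposited, and 5 were at least 2-fold lower against 1 higher, beside 5.35% and 13.4% of all genes. Acy3, an aminoacylase that acts on mercapturates, went from 75411 to 24580 reads, a log2 ratio of -2.20 [-2.22, -2.18]. Ggt1, the brush border enzyme that starts the breakdown, went from 49199 to 24001, a log2 ratio of -1.62 [-1.64, -1.60]. The exception was Chac1, a stress-induced enzyme that splits glutathione in the cell, which went from 15 to 64 reads and stood at 1.45.

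Of 6 membrane-bound and sigma-class relatives outside the symbol rule, 4 were at least 2-fold higher and none lower, beside 13.4% and 5.35% of all genes, with a median of 1.35 that was 1.77 with equal totals, and 1.70 for deposited values. Mgst1 went from 1856 to 6621 reads, a log2 ratio of 1.25 [1.18, 1.32]. Alox5ap, a protein that helps leukotriene synthesis without being an enzyme, went from 46 to 403 reads. Ltc4s, which makes leukotriene C, went from 47 to 195, and Hpgds, which makes prostaglandin D, from 27 to 195. Mgst3, the most-read member, was at 0.02 [-0.03, 0.07], and Ptges at 0.84. Mgst2 was not analysed here.

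Other steps gave single genes of note. Of 7 transporters that export conjugates, Abcc3 went from 100 to 963 reads (log2 ratio 2.67) and Abcc4 from 812 to 4185 (1.78), while Abcc2 and Abcg2 were at -0.16 and -0.61; the list's median of 0.58 stayed above 0 under each scaling. Of 3 deconjugating enzymes analysed, Gusb, the lysosomal glucuronidase, went from 7146 to 2174 reads, a log2 ratio of -2.30 [-2.37, -2.23], and Arsa and Arsb were at 0.20 and -0.67. Sts was not analysed here. Of 9 other conjugating enzymes, Inmt and Nnmt, both methyltransferases, were the extremes at -2.97 with 23839 and 4578 reads and at 3.15 with 9 and 132 reads. The list's median of -0.46 turned to 0.13 with the values as deposited.

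Of 11 known regulators of these genes, none was at least 2-fold higher and 1, the bile acid receptor Nr1h4, at least 2-fold lower at -1.03, beside the 13.4% and 5.35% of all genes. Hnf4a, the most read, went from 38137 to 28756 reads (-0.99). Ahr went from 213 to 517 reads (0.69), Nfe2l2, which encodes Nrf2, from 2540 to 5639 (0.57), and Nr1i2, the pregnane X receptor, from 127 to 360 (0.91). The median of the list, -0.22, turned to 0.19 with equal totals. Target genes of the aryl hydrocarbon receptor, 4 past the filter with Cyp1a1 at 57 and 73 reads, had a median of -0.12, and 9 target genes of Nrf2 outside the Gst families had a median of -0.29, from Osgin1 at -0.91 to Slc7a11 at 0.66; both medians turned positive with equal totals. Neither list had a gene past 2-fold. Nr1i3 and Cyp1a2 were not analysed here.

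**Figure D5:**
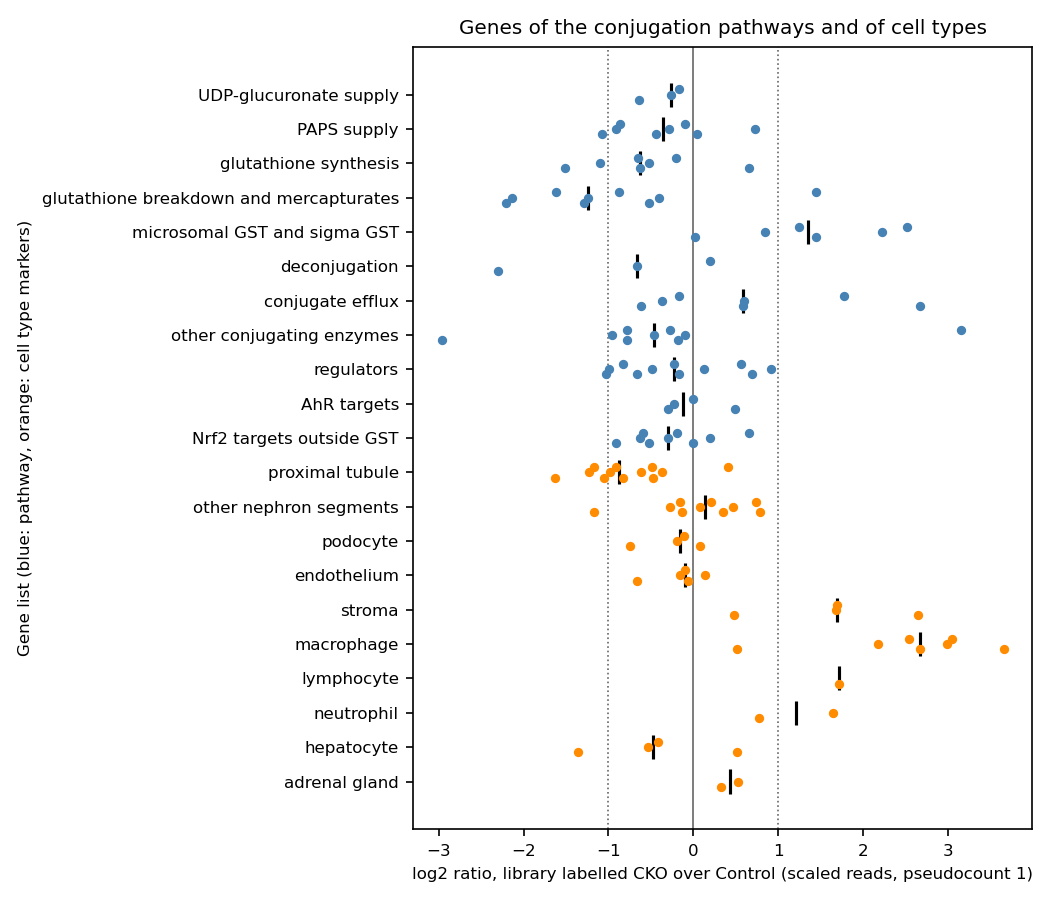
log2 ratios, CKO over control, of the genes of each list that passed the filter, with black bars at the list medians and dotted lines at 2-fold. Genes that take glutathione conjugates apart lie lowest among the pathway lists, with a median of -1.24, and macrophage markers highest among the cell type markers, with a median of 2.67; with equal totals these medians were -0.82 and 3.09, while those of UDP-glucuronate supply, PAPS supply, the regulators, both target lists, podocyte and endothelium changed sign.

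Markers of cell types were also read from lists, and the list medians went in both directions. Of 12 proximal tubule markers, 11 were below 0 and 4 of them past 2-fold with the main scaling, beside 5.35% of all genes. Slc34a1, Miox and Slc27a2, at -1.17, -1.05 and -1.23, were past 2-fold by less than the shift that equal totals bring. The list had a median of -0.87 (-0.45 with equal totals, -0.28 with the values as deposited) and sums of 706835 control and 556909 CKO reads. Slc27a2 was the most read with 157696 and 100638 reads, Slc22a6 the lowest at -1.62 and Slc5a12 the highest at 0.41, and none was near 0 reads, so both kidneys held tubule RNA. Against 1000 reads of these markers, Ugt2 genes had 89.8 control and 39.6 CKO reads, and Ugt3 genes had 97.2 and 67.6. On the same measure, which was chosen after the values were seen and needs no scaling, Gsta genes had 5.30 and 17.7, Ugt1a genes 36.5 and 57.7, Gstm genes 34.8 and 48.3, the smaller Gst classes 44.9 and 57.5 and Sult genes 54.5 and 81.9. The log2 ratio of summed Ugt3 reads, -1.45, lay within the range of the single markers, and that of summed Ugt2 reads, -2.11, below it. The part that tubule RNA had in the ratios was not tested.

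Of 10 markers of other nephron segments, 1 was at least 2-fold lower and none higher, beside 5.35% and 13.4% of all genes, with a median of 0.14. Podocyte and endothelial markers had medians of -0.15 and -0.10, which turned positive with equal totals. Of 7 macrophage markers, 6 were at least 2-fold higher, beside 13.4% of all genes, with a median of 2.67 and sums of 3486 and 22105 reads. Csf1r, at 0.51, had the most control reads of them with 2244, and Lyz2 the most CKO reads with 9836, from 518. Of 4 stromal markers, 3 were at least 2-fold higher, beside the same 13.4%, with a median of 1.69 and sums of 3580 and 14492 reads. Their part in the higher Gst and Ugt1a genes was not tested. Lymphocyte and neutrophil markers were scarce, with Cd3e at 6 and 33 reads and S100a9 at 13 and 64.

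Markers of liver and adrenal gland, which also express these enzymes, were read too. Alb, the leading mRNA of hepatocytes, had 117 control and 121 CKO reads, Apoa1 had 11 and 12, and Apoa2 had 17 and 9. Fga, with 943 and 2028 reads, was the most-read hepatocyte marker, at 0.52. Of the adrenal markers, Star had 37 and 70 reads, Mc2r 8 and 18, and Cyp11a1 4 and 10. The markers of these lists that had no value, among them Cyp11b1 and Tat, were not analysed here.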

How the data were processed

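The data are whole-kidney RNA-seq values of 1 control library and 1 library labelled CKO. The authors prepared stranded poly(A) libraries, aligned reads with STAR 2.7.3a to mm10, used HTSeq for counting and DESeq2 for normalization; the submitters' processing notes also name Cufflinks 2.2.1, FastQC and edgeR, whose output was not used here. The annotation and counting mode were not given in the sources used here. The deposited values are a score: whole numbers called normalized counts, with a lowest value of 35 for control and 51 for CKO. They were taken as reads plus a constant, an inference from the values, and the column minimum minus 1 was subtracted. The scaling factor of CKO reads was the median gene ratio between both libraries, and then log2((CKO + 1)/(control + 1)) was taken. A gene passed the filter if either library reached 10 scaled reads, and it was called when it differed 2-fold. With 1 library per group no test between groups was made; intervals are 95% Clopper-Pearson intervals of the CKO share of the reads and cover counting error only. Median depth was 284 and 513.5 reads per gene.

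Of each family, the genes named with full values were the one with the most scaled reads per kb, the highest and the lowest ratio, and each gene past 2-fold with at least 50 reads in 1 library; others are given by range or reads. Length was the exon length of coding transcripts in GENCODE M21 that no other gene shares. Proteins were translated from the same annotation for 44 genes and aligned globally; 8 had a copy at least 95% identical. Promoters and coordinates came from RefSeq (GRCm38.p6); 39 of the 46 genes matched a promoter and 46 a gene identifier. The 4 motifs named in the text were searched on both strands.

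Genes and lists were chosen with earlier results of these data known. Alternatives were a pseudocount of 0.1 or 10, a filter of 50 reads or none, cut-offs at 1.5-fold and 4-fold, 3 scalings (the median log2 ratio set to 0, equal totals, equal upper quartiles), the values as deposited, the column minimum subtracted, and the families without pseudogenes and near-identical copies. The code was tested on simulated data. Python 3.11.15, numpy 2.4.6, pandas 2.3.3, scipy 1.17.1, Biopython 1.88 and matplotlib 3.10.9 were used.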

Additional observations from a re-analysis of the deposited data

How the results depend on the processing

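The 9 higher and 6 lower genes became 14 and 4 when totals were made equal (all genes: 21.9% and 2.47%). For the deposited values they became 15 and 2 (all genes: 17.9% and 0.655%). At 1.5-fold the counts were 14 and 15, and at 4-fold 3 and 2, changes that the thresholds themselves bring about. The counts at 1.5-fold and 4-fold were not set beside all genes at the same cut-offs, so whether they differ from all genes was not tested. With equal totals the family medians were 1.19 (Ugt1a), -1.13 (Ugt2), -0.98 (Ugt3), 1.25 (Gsta), -0.10 (Gstm), -0.0656 (smaller Gst classes) and 0.54 (Sult), a shift that the scale itself brings. With the values as deposited they were -0.96 (Ugt2), -0.81 (Ugt3), 1.40 (Gsta) and 0.66 (Sult), and Gstm and the smaller Gst classes changed sign to 0.12 and 0.11. What else than the scale lay behind this was not tested. With equal upper quartiles the Ugt3 median was -1.36. Without pseudogenes and near-identical copies, which leaves fewer genes, the medians were 1.23 (Ugt1a), -1.27 (Ugt2), 0.62 (Gsta) and -0.12 (smaller Gst classes). All other alternatives left the family medians within the median counting bounds of their genes and the counts within 1.5 times. A further 600 values of single genes and lists, chosen after the data were seen, were read under alternatives from the same set. Of these values, 487 lay within counting bounds and 113 moved. No gene or list median past 2-fold changed sign. In contrast, 9 genes inside 2-fold did, 4 of them for deposited values only, where the constants are also left in. List medians inside 2-fold changed sign too: UDP-glucuronate supply, PAPS supply, regulators, both target lists, podocyte and endothelium with equal totals and for deposited values, and other conjugating enzymes and hepatocyte for the latter only. The lower count was 7 with the median log2 ratio set to 0 and with the column minimum subtracted, as Gstz1 passed 2-fold. Family reads per proximal tubule marker read were also added after the data were seen. Counting error limits what can be read from genes with few reads, such as Sult4a1, Gstp3, Sult5a1 and Ugt1a5.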

Other observations

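Place along a cluster and direction were compared for the other tandem families. In the Gstm cluster of chromosome 3, from Gstm5 to Gstm4, the 7 log2 ratios were 0.06, -0.40, 0.87, -0.82, 0.26, -0.77 and -0.62, with both signs among neighbours; that of Gstm7, -0.40, turned positive with equal totals and for deposited values, and that of Gstm3, -0.82, for deposited values. On chromosome 5 the Ugt2 cluster runs into Sult1b1, Sult1d1 and Sult1e1, and there Ugt2b38 at -2.43 has Sult1b1 at 0.05 as its next neighbour of these families. In the Gstp cluster of chromosome 19, Gstp1 and Gstp2 were at -0.83 and -0.68 and Gstp3 was at 1.91.

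Promoter letters of stress-responsive factors were also counted, by genes with at least 1 promoter that holds them. TGACNNNGC, the core of the antioxidant response element bound by Nrf2, was found for 3 of the 39 genes matched, Gsta3, Gstm5 and Gstm7, and for 3781 of the 27025 genes with a promoter. TGANTCA, the letters of an AP-1 site, was found for 8 of the 39 and for 8.97% of all. These 8 were Gstm5, Gstp1, Gstp2, Sult1b1, Sult2b1, Ugt1a6a, Ugt2b37 and Ugt2b38. TTCNNNGAA, the letters of a STAT site, was found for 3 of the 39, Gsta1, Gstm6 and Ugt1a6a, and for 9.55% of all. These are matches of letters in a short window, and no binding was measured.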
